A study of Rattus norvegicus with 16 samples.

Results

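The genes described here are the phase II conjugation enzymes of rat liver: the sulfotransferases (SULT), the UDP-glucuronosyltransferases (UGT), the glutathione transferases (GST) and the microsomal glutathione transferases (MGST). They were chosen by symbol from the 17168 genes of the count table. Of 57 genes whose symbols begin with Sult, Ugt, Mgst or the class letters of the GST family, each followed by a digit, 52 had at least 10 counts in at least 4 of the 16 libraries and are the members. They comprise 7 SULT1, 5 other SULT, 8 UGT1, 9 other UGT, 5 alpha, 7 mu and 8 other GST, and 3 MGST genes. Gstm6l, Gstt4, Sult5a1, Sult6b1 and Ugt8 matched by symbol but reached 10 counts in 0 libraries; the highest count among them was 8. Just inside the limit were Sult1d1 with 4 libraries, Ugt2b7 with 5 and Sult4a1 with 6. A filter on low counts left 51 of the 52 for testing, and the one not tested was Sult1d1, at 0 to 1.32 CPM in all libraries. Close copies in these families share reads, which an estimated count divides among them, so a single value of a close copy is less certain than the sum of its subfamily.

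Livers came from Sprague Dawley rats that were wild type (WT) or tspo -/- (KO), a genotype lacking the cholesterol-binding translocator protein of the outer mitochondrial membrane. Rats of either genotype ate normal food up to 12 weeks of age and thereafter, for 8 weeks, either chow or food deficient in methionine and choline (MCD), so all were 20 weeks old when sampled. The 4 groups, KO MCD, WT MCD, KO chow and WT chow, hold 4 libraries each and carry no other labelled allele or agent. The MCD diet is a standard model of fatty liver with inflammation, and methionine is also the dietary source of sulfur for cysteine, glutathione and sulfate. The labels name rat as the organism, while the series title speaks of mice. They state neither how the knockout was made nor whether each library was a separate animal, so a p-value here reflects library-to-library spread, which may be technical.

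Conjugation makes lipophilic molecules soluble for export into bile or urine. SULT enzymes add sulfonate from the donor PAPS to steroids, bile acids and phenols; UGT enzymes add glucuronic acid from UDP-glucuronate to bilirubin, steroids and drugs; GST and MGST enzymes add glutathione to electrophiles such as products of lipid peroxidation. In hepatocytes many of these genes are targets of the nuclear receptors CAR, PXR and FXR, of the aryl hydrocarbon receptor AHR, or of NRF2, the sensor-controlled activator of the oxidative stress response.

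Libraries held 8745756 to 15762650 counts. The members took 0.867 to 1.59% of counts in KO MCD and 0.812 to 1.17% in WT MCD livers, against 1.27 to 2.74% in KO chow and 1.27 to 2.17% in WT chow livers. Hepatocyte markers summed to 86469 to 104869 CPM in KO MCD and 81074 to 118469 CPM in WT MCD livers, against 165396 to 213810 CPM in KO chow and 159062 to 185847 CPM in WT chow livers, and 5 of the 10 fell with the diet in each genotype. Bile duct markers, of which 2 of 7 tested rose in each genotype and 0 fell, summed to 83.4 to 138 CPM in KO MCD and 86.8 to 149 CPM in WT MCD livers, against 24.4 to 51.3 CPM in KO chow and 30.9 to 54.9 CPM in WT chow livers. Red blood cell markers summed to 102 to 142 CPM in KO MCD and 84.9 to 234 CPM in WT MCD livers, against 494 to 4795 CPM in KO chow and 1037 to 1546 CPM in WT chow livers, with the highest sum in KO chow number 4, and 5 of 5 fell in each genotype. Stellate cell markers summed to 455 to 675 CPM in KO MCD and 452 to 1279 CPM in WT MCD livers, against 242 to 370.1 CPM in KO chow and 284 to 503 CPM in WT chow livers. Over all genes tested 21.9% rose and 18.5% fell in KO livers, and 18.2% rose and 15.9% fell in WT livers. The count of bile duct markers that rose was near these shares. No listed gene of these 4 cell types that is in the table was at 0 in all libraries. The part of these markers in the results was not tested, and in whole liver RNA fewer cells of a type and less RNA per cell cannot be told apart. Tspo, the targeted gene, had 0.656 to 1.66 CPM in 6 of the 8 KO libraries, 4.42 CPM in the library labelled KO chow number 4 and 4.17 CPM in the library labelled KO MCD number 1, against 7.63 to 9.33 CPM in WT MCD and 3.61 to 5.23 CPM in WT chow livers. Both of those libraries and WT chow number 4 also had a low length index, the mean log2 level of 14 long transcripts less that of 19 short ones, at -1.71 in KO chow number 4, -0.77 in KO MCD number 1 and -0.77 in WT chow number 4. The index was 1.27 to 1.87 in the other MCD libraries and -0.20 to 0.35 in the other chow libraries, so it also moves with the diet, and its part in the results was not tested. For several members the results are given with and without these 3 libraries. Sums of subfamilies and the genes of the lists are given with all 16 libraries alone.

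The diet comparison asked how MCD feeding altered the conjugation genes in each genotype. On the MCD diet most of the members that passed the test fell. Calls are genes with an adjusted p below 0.05 (edgeR's quasi-likelihood test, Benjamini-Hochberg adjustment over 11162 genes). In KO livers 28 of 51 members were called, 7 higher and 21 lower on MCD than on chow, which is 54.9%, beside 40.4% of all genes tested (21.9% up and 18.5% down). In WT livers 27 of 51 were called, 6 higher and 21 lower, which is 52.9%, beside 34.1% of all genes tested (18.2% up and 15.9% down). The median log2 fold of the members was -0.83 in KO and -0.62 in WT livers, beside 0.041 in KO and -0.0023 in WT livers over all genes tested. Between genotypes 25 calls were shared, 5 up and 20 down, which is 25 of the 28 KO calls and 25 of the 27 WT calls. None was called in opposite directions, and 21 members were called in neither genotype. The overlap over all genes tested was not counted, so this agreement is not shown to be particular to the members. Without any scaling beyond the library total the split was 16 up and 15 down in KO and 12 up and 17 down in WT livers. That is 60.8% of the members in KO livers, beside 61.4% of all genes tested, and 56.9% in WT livers, beside 47.6%, so in KO livers the share called was then near that of all genes. That scaling moved the median of all genes to 0.77 in KO and 0.53 in WT livers on the log2 scale, so all changes below are relative to the bulk of genes.

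**Figure D1:**
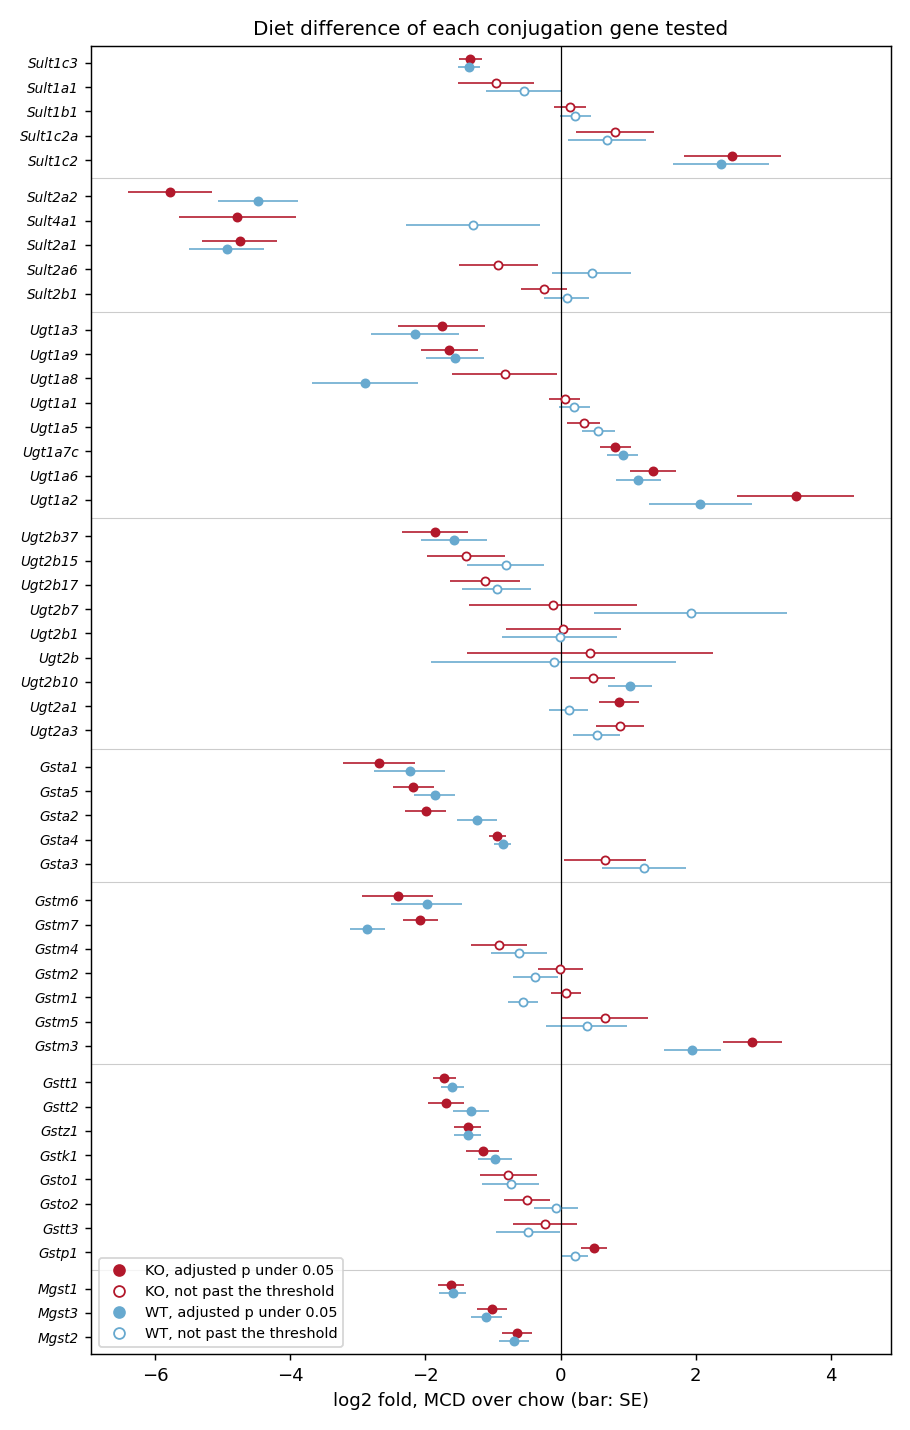
Log2 fold of MCD over chow (x axis) for 50 of the 51 members tested, in KO (red) and WT (blue) livers, with the SE as a bar; filled points passed the test, and lines part the subfamilies. Sult1e1 is left out because its MCD libraries are nearly all at 0. Most filled points lie left of 0, and those of Sult1c2, Gstm3, Ugt1a2, Ugt1a6 and Ugt1a7c lie right of 0 in both genotypes.

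The sulfotransferases included large losses. Sult1e1, the estrogen sulfotransferase, was at or near 0 on MCD. In KO livers Sult1e1 had 0, 0, 0 and 0.0552 CPM on MCD, against 1647, 552, 1069 and 1560.2 CPM on chow. In WT livers Sult1e1 had 19.4, 0, 0 and 0 CPM on MCD, against 1274, 973, 1373 and 235 CPM on chow. The only KO MCD value above 0 stands for 1 count, and 1 WT MCD library, number 1, was above 0. In both genotypes the MCD libraries all lay below the chow libraries for Sult1e1. The fitted fold of such a gene depends on the prior count, so none is given; the adjusted p was 9.26e-05 in KO and 0.00111 in WT livers. Within the chow groups its level also spread widely. WT chow number 4 had 235 CPM, beside 973 CPM or more in the other WT chow libraries. Sult1e1 and most other members shown by library were picked for a small diet p in the same data. Lack of overlap between the diets, here and below, therefore adds no support to their calls. How many of all genes tested lacked such overlap was not counted.

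Sult2a1, the hydroxysteroid and bile acid sulfotransferase, fell in both genotypes. In KO livers Sult2a1 had 139, 40.8, 59.9 and 79.8 CPM on MCD, against 1405, 1534, 1728 and 3911 CPM on chow. In WT livers Sult2a1 had 71.2, 27.7, 48.7 and 37.7 CPM on MCD, against 953, 935, 840.2 and 2961 CPM on chow. Sult2a1 showed no overlap of the diets, with MCD below chow in KO and WT livers alike. Sult2a1 had a diet log2 fold of -4.75 ± 0.55 in KO livers (adjusted p = 1.72e-05) and of -4.94 ± 0.56 in WT livers (adjusted p = 1.6e-05). Libraries KO chow 4 and WT chow 4 were the highest of their groups, and without WT chow 4 the WT log2 fold of Sult2a1 was -4.29. Sult2a2, a close copy, fell as well. In KO livers Sult2a2 had 0.974, 1.03, 0.655 and 0.883 CPM on MCD, against 20.0, 69.9, 36.1 and 72.3 CPM on chow. In WT livers Sult2a2 had 0.984, 1.04, 1.58 and 0.565 CPM on MCD, against 15.6, 13.0, 8.67 and 54.8 CPM on chow. The diets were apart for Sult2a2 in both genotypes, MCD lying below chow throughout. Sult2a2 had a diet log2 fold of -5.78 ± 0.62 in KO livers (adjusted p = 9.19e-06) and of -4.48 ± 0.59 in WT livers (adjusted p = 5.72e-05). Without WT chow 4 the WT log2 fold of Sult2a2 was -3.59. Without the 3 libraries that stood apart, the log2 folds of Sult2a1 were -4.69 ± 0.33 in KO and -4.30 ± 0.29 in WT livers (adjusted p = 4.87e-07 and 3.89e-07). Sult2a6, another copy, described after its values were seen, was not called in either genotype. Sult2a6 had 389, 122, 115 and 145 CPM in KO MCD livers, against 60.0, 426, 319.7 and 654 CPM in KO chow livers. In WT livers Sult2a6 had 154, 153, 212 and 103 CPM on MCD, against 61.8, 69.0, 77.6 and 245 CPM on chow. Its level was not uniform on chow, where KO chow 1 and WT chow 1, 2 and 3 had 60.0 to 77.6 CPM and the other 4 libraries 245 CPM or more. Sult2a6 had a diet log2 fold of -0.92 ± 0.59 in KO livers (adjusted p = 0.22) and of 0.46 ± 0.59 in WT livers (adjusted p = 0.569). Without the 3 libraries Sult2a6 had -1.08 ± 0.52 in KO and 1.16 ± 0.50 in WT livers (adjusted p = 0.105 and 0.0745) and was again not called.

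The promoters of these 3 genes are shown because the genes belong to one subfamily and were not called alike. Each runs from 250 bases before to 50 bases after the start site, on the gene's own strand, from RefSeq (GRCr8): Sult2a1 at chr1:84638898-84639197, minus strand, Sult2a2 at chr1:85104483-85104782, minus strand and Sult2a6 at chr1:84097759-84098058, minus strand. Capitals mark 12 bases, GGGTCATGAACT, that all 3 share, which hold 2 half-sites of the nuclear receptor kind in opposite orientation. An inverted repeat of this kind in the rat Sult2a1 promoter is known to be bound by FXR, PXR and CAR.
Sult2a1: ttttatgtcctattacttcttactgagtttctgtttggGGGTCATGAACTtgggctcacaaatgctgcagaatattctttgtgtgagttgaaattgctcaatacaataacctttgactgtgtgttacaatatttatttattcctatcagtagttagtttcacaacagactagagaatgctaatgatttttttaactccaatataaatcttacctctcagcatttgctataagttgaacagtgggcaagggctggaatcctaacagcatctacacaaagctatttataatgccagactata
Sult2a2: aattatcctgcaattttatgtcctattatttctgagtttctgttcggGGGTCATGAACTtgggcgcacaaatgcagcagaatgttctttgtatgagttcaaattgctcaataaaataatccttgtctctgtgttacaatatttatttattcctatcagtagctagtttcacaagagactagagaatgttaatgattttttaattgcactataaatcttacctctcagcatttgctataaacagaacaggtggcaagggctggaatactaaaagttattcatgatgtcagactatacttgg
Sult2a6: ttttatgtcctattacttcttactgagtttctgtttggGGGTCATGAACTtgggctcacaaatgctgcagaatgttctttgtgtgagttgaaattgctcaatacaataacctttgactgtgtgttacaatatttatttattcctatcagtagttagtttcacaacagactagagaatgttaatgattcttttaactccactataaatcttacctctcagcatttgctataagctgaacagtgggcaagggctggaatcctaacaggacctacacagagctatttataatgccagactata
The 12 bases were read from the Sult2a1 promoter after it was seen and searched on both strands. Counted from the start site, they begin at -212 in Sult2a1 and Sult2a6 and at -203 in Sult2a2. Of 33469 RefSeq promoters of this length 8 hold them, 0.0239%. The windows of Sult2a1 and Sult2a6 are identical at 292 of 300 positions, 97.3%. Compared position by position from the window's first base, with no alignment, the window of Sult2a2 matches Sult2a1 at 28.7% and Sult2a6 at 28.0% of positions. The shared bases begin at -203 in Sult2a2 and at -212 in the others, so its window is offset. These 2 percentages therefore do not measure how alike the sequences are. Counted in this way, the windows of Sult2a1 and Ugt1a6 match at 26%. A match of letters is a description and does not show that a factor binds there.

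Among the SULT1 genes, Sult1c3 fell and Sult1c2 rose. In KO livers Sult1c3 had 114, 142, 149 and 137 CPM on MCD, against 407, 255, 345 and 358 CPM on chow. In WT livers Sult1c3 had 145, 129, 164 and 137 CPM on MCD, against 362, 411, 379.9 and 319.8 CPM on chow. For Sult1c3 the lowest and highest libraries of the diets did not cross in either genotype, and MCD lay below chow. Sult1c3 had a diet log2 fold of -1.33 ± 0.17 in KO livers (adjusted p = 2.74e-05) and of -1.36 ± 0.17 in WT livers (adjusted p = 3.04e-05). Sult1c2, of the same class of enzymes that act on phenols and hydroxylated arylamines, went the other way. In KO livers Sult1c2 had 146, 62.9, 178 and 167 CPM on MCD, against 14.8, 11.5, 8.02 and 61.3 CPM on chow. In WT livers Sult1c2 had 61.9, 99.99, 91.5 and 396 CPM on MCD, against 12.1, 16.1, 38.6 and 58.5 CPM on chow. Every MCD value of Sult1c2 lay above every chow value in both genotypes. Sult1c2 had a diet log2 fold of 2.54 ± 0.72 in KO livers (adjusted p = 0.0109) and of 2.38 ± 0.71 in WT livers (adjusted p = 0.0172). The highest WT MCD value, 396 CPM in library 4, decides the WT call: without it the log2 fold was 1.43 (adjusted p = 0.104), and the call was also lost without WT chow 1 (2.09, adjusted p = 0.0514) or WT chow 2 (2.16, adjusted p = 0.0511). In KO livers the log2 fold of Sult1c2 was 3.60 without KO chow 4. Sult1c2a was not called with all libraries. Its log2 fold was 0.80 ± 0.58 in KO and 0.69 ± 0.58 in WT livers, and without the 3 libraries that stood apart 1.83 ± 0.17 (adjusted p = 2.37e-06) and 1.61 ± 0.16 (adjusted p = 3.87e-06).

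Sult1a1, the main phenol sulfotransferase, and Sult1b1, which acts on thyroid hormones, were not called. Sult1a1 had a diet log2 fold of -0.96 ± 0.56 in KO livers (adjusted p = 0.18) and of -0.55 ± 0.55 in WT livers (adjusted p = 0.463). Sult1b1 had a diet log2 fold of 0.14 ± 0.23 in KO livers (adjusted p = 0.65) and of 0.22 ± 0.23 in WT livers (adjusted p = 0.487). Without the 3 libraries that stood apart Sult1a1 had -0.27 ± 0.18 in KO and 0.14 ± 0.17 in WT livers (adjusted p = 0.217 and 0.493), so that its WT value changed sign, and Sult1b1 was called in WT livers at 0.48 ± 0.15 (adjusted p = 0.0166). Sult4a1, a sulfotransferase-like protein best known from brain, was called in KO livers alone. In KO livers Sult4a1 had 0.139, 0.115, 0.728 and 0.387 CPM on MCD, against 16.4, 9.73, 10.4 and 1.07 CPM on chow. In WT livers Sult4a1 had 0.303, 0, 0.849 and 0.0942 CPM on MCD, against 1.58, 0.651, 0 and 0.666 CPM on chow. For Sult4a1 every MCD value lay below every chow value in KO livers, while the diets overlapped in WT livers. Sult4a1 had a diet log2 fold of -4.78 ± 0.87 in KO livers (adjusted p = 0.000601) and of -1.30 ± 0.99 in WT livers (adjusted p = 0.322). Without KO MCD 3 the KO log2 fold of Sult4a1 was -5.37. It was above 9 CPM in KO chow 1, 2 and 3 and at or below 1.58 CPM in all the other libraries. Of the 6 libraries with at least 10 counts, KO chow 1, 2 and 3 had 144, 89 and 105 counts. Without that group Sult4a1 would have missed the limit of 4 libraries. Its call and lack of overlap in KO livers therefore add no support. The difference between the genotypes' diet effects was -3.48 ± 1.36 (adjusted p = 1.00), so the diet effects were not shown to differ between the genotypes. Sult2b1, the cholesterol sulfotransferase, stayed between 1.26 and 4.55 CPM in all 16 libraries and was not called. As a family the SULT1 genes had 1 member up and 2 down in each genotype. The other SULT genes had 0 up and 3 down in KO and 0 up and 2 down in WT livers. That is 50% of the SULT1 genes tested in each genotype, and 60% of the other SULT genes in KO and 40% in WT livers. Over all genes tested 40.4% were called in KO and 34.1% in WT livers. Summed over copies, the other SULT genes had 276 ± 173 CPM in KO MCD and 206 ± 52.8 CPM in WT MCD livers, against 2571 ± 1406 CPM in KO chow and 1562 ± 1135 CPM in WT chow livers (SD, n = 4 each). KO chow 4 had 4642 CPM, beside 1504 to 2096 CPM in the other KO chow libraries. WT chow 4 had 3262 CPM, beside 931 to 1034 CPM in the other WT chow libraries.

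**Figure D2:**
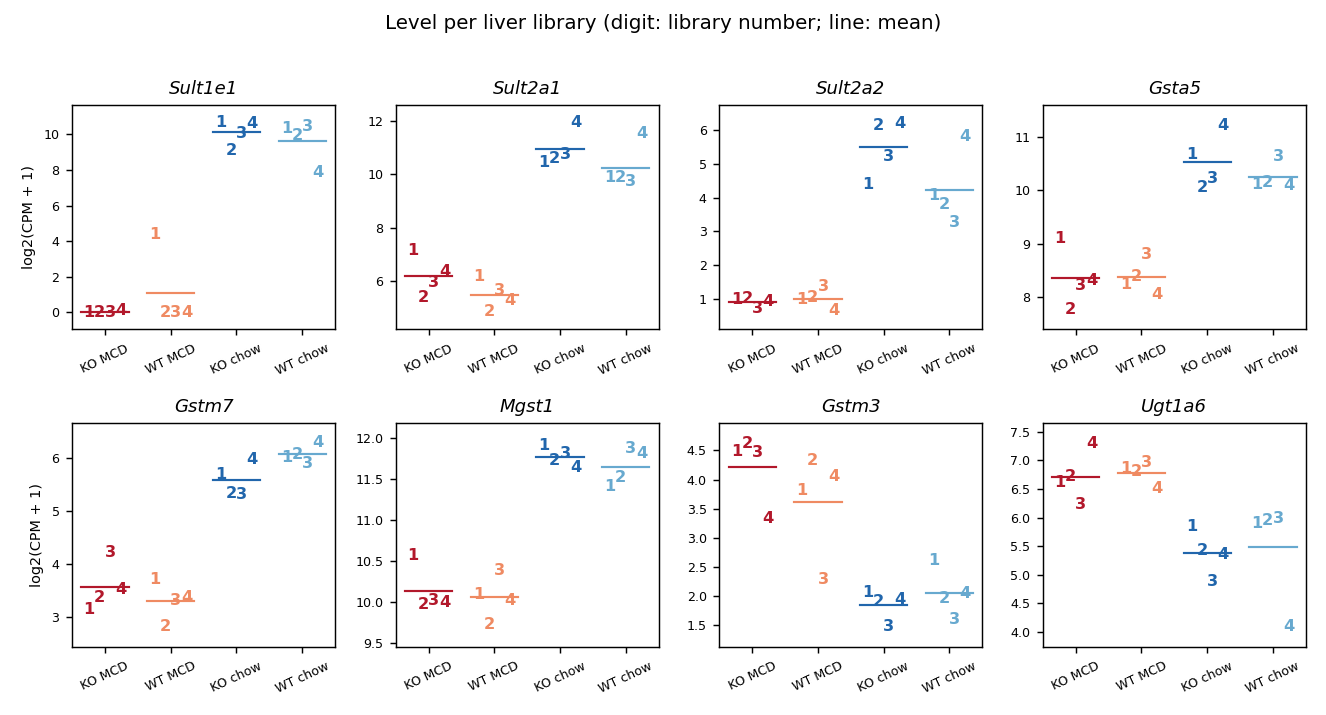
Level of 8 members in every library, as log2(CPM + 1) on the y axis, by group from KO MCD at the left to WT chow at the right; each digit is a library by its number and each line the group mean. Sult1e1, Sult2a1, Sult2a2, Gsta5, Gstm7 and Mgst1 lie lower in the MCD groups, and Gstm3 and Ugt1a6 higher, with WT MCD 3 of Gstm3 close to the chow values.

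The UGT1 genes went in both directions. They share one locus, where each gene's own first exon is joined to the same later exons, so counts of the copies are hard to part. In each genotype 3 of 8 members rose, Ugt1a2, Ugt1a6 and Ugt1a7c. In KO livers 2 fell (Ugt1a3 and Ugt1a9) and in WT livers 3 (the same and Ugt1a8). That is 62.5% called in KO and 75% in WT livers, beside 40.4% and 34.1% of all genes tested. Ugt1a6 and Ugt1a7c belong to the group that conjugates flat phenols and is known in rat for induction through AHR. In KO livers Ugt1a6 had 96.9, 104, 74.1 and 157 CPM on MCD, against 56.8, 42.1, 28.5 and 39.9 CPM on chow. In WT livers Ugt1a6 had 115, 111, 124 and 90.0 CPM on MCD, against 58.9, 60.6, 62.6 and 16.1 CPM on chow. In both genotypes the MCD libraries all lay above the chow libraries for Ugt1a6. Ugt1a6 had a diet log2 fold of 1.37 ± 0.34 in KO livers (adjusted p = 0.00521) and of 1.15 ± 0.34 in WT livers (adjusted p = 0.016). Ugt1a7c had 22.0, 23.8, 17.3 and 29.2 CPM in KO MCD livers, against 13.3, 15.6, 15.3 and 8.30 CPM in KO chow livers. In WT livers Ugt1a7c had 26.1, 21.1, 22.7 and 24.0 CPM on MCD, against 10.9, 18.04, 10.5 and 10.1 CPM on chow. Ugt1a7c showed no overlap of the diets, with MCD above chow in KO and WT livers alike. Ugt1a7c had a diet log2 fold of 0.81 ± 0.23 in KO livers (adjusted p = 0.0101) and of 0.92 ± 0.23 in WT livers (adjusted p = 0.00586). With the length index in the model neither gene was called: Ugt1a6 had 1.02 in KO and 0.84 in WT livers (adjusted p = 0.0752 and 0.122), and Ugt1a7c 0.54 and 0.63 (adjusted p = 0.113 and 0.0723).

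In KO livers Ugt1a2 had 6.81, 7.38, 11.1 and 17.4 CPM on MCD, against 1.02, 2.73, 0 and 0 CPM on chow. In WT livers Ugt1a2 had 10.4, 15.3, 4.37 and 16.6 CPM on MCD, against 0.649, 1.12, 8.38 and 1.81 CPM on chow. For Ugt1a2 every MCD value lay above every chow value in KO livers, while the diets overlapped in WT livers. Ugt1a2 had a diet log2 fold of 3.48 ± 0.86 in KO livers (adjusted p = 0.00514) and of 2.06 ± 0.76 in WT livers (adjusted p = 0.0464). Its WT call was lost in 17 of the 27 alternative settings, among them the fit without the 3 libraries (1.96 ± 0.87, adjusted p = 0.0846). Library WT chow 3, at 8.38 CPM, lay inside the WT MCD range. Without WT chow 3 the WT log2 fold of Ugt1a2 was 3.29, and without KO chow 2 the KO log2 fold was 4.93. Ugt1a9 had a diet log2 fold of -1.64 ± 0.42 in KO livers (adjusted p = 0.00639) and of -1.57 ± 0.43 in WT livers (adjusted p = 0.011). Without scaling its KO value was -0.94 (adjusted p = 0.0565), and with the length index in the model it had -1.32 in KO and -1.26 in WT livers (adjusted p = 0.0908 and 0.0823). Ugt1a3 had a diet log2 fold of -1.76 ± 0.64 in KO livers (adjusted p = 0.0387) and of -2.15 ± 0.65 in WT livers (adjusted p = 0.0183). The KO call of Ugt1a3 was lost in 10 of the 27 alternative settings, among them the fit without KO MCD 1 (-1.58, adjusted p = 0.0764). The WT value of Ugt1a3 was -0.87 (adjusted p = 0.176) without WT chow 3, which had 16.8 CPM. Ugt1a8 had a diet log2 fold of -0.83 ± 0.77 in KO livers (adjusted p = 0.404) and of -2.89 ± 0.78 in WT livers (adjusted p = 0.0102). Its WT call was lost without WT chow 3 (-1.94, adjusted p = 0.0584). Ugt1a1, the bilirubin UGT, was at 157 to 296 CPM in KO MCD and 195 to 275 CPM in WT MCD livers, against 176 to 196 CPM in KO chow and 157 to 283 CPM in WT chow livers, and was not called. Ugt1a1 had a diet log2 fold of 0.06 ± 0.23 in KO livers (adjusted p = 0.846) and of 0.20 ± 0.23 in WT livers (adjusted p = 0.505). The summed UGT1 genes had 451 ± 123 CPM in KO MCD and 497 ± 47.7 CPM in WT MCD livers, against 352 ± 33.8 CPM in KO chow and 366 ± 80.4 CPM in WT chow livers (SD, n = 4 each).

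The promoters of Ugt1a6 and Ugt1a7c are shown because both rose in both genotypes and both hold GCGTG, the core letters of the element that AHR binds, in capitals (in Ugt1a7c on the other strand, so that it reads CACGC). They are from RefSeq (GRCr8), Ugt1a6 at chr9:96194768-96195067, plus strand and Ugt1a7c at chr9:96187132-96187431, plus strand.
Ugt1a6: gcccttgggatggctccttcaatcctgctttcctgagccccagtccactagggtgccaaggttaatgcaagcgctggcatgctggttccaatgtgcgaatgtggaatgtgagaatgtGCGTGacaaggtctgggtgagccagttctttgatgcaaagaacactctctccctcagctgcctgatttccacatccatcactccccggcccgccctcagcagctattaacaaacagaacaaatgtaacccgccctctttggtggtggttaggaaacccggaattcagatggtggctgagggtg
Ugt1a7c: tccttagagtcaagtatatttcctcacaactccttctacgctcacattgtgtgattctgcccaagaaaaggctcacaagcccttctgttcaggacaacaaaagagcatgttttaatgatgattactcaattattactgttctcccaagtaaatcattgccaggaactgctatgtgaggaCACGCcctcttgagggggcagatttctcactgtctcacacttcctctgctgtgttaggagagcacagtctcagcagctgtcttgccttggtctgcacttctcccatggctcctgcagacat
Counted from the start site, the match lies at -133 in Ugt1a6 and at -71 in Ugt1a7c. GCGTG, searched on both strands, is in 29.7% of all 33469 promoters, in 2 of the 5 members that rose in both genotypes, in 4 of the 17 that fell in both and have a promoter in the table, and in 11 of the 43 members with a promoter. Of the same locus, Ugt1a3, which fell in both genotypes, holds it at -140. Ugt1a8, which fell in WT livers, holds it at -107. The letters therefore do not set the genes that rose apart. The core of the antioxidant response element of NRF2, TGACNNNGC, is in 12.1% of all promoters, in 0 of the 5 that rose, in 4 of the 17 that fell and in 6 of the 43. The half-site AGGTCA is in 16.2% of all promoters, in 0 of the 5, in 3 of the 17 and in 6 of the 43. Ahr itself, not a member, rose, and its part in the changes of Ugt1a6 and Ugt1a7c was not tested. Ahr averaged 31.8 ± 8.49 CPM in KO MCD and 37.0 ± 8.26 CPM in WT MCD livers, against 7.36 ± 1.33 CPM in KO chow and 12.7 ± 2.81 CPM in WT chow livers (SD, n = 4 each). Ahr had a diet log2 fold of 2.11 ± 0.23 in KO livers (adjusted p = 1.23e-05) and of 1.54 ± 0.23 in WT livers (adjusted p = 0.00014).

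Of the 9 other UGT genes, enzymes that conjugate steroids, bile acids and fatty acids, 1 was called up and 1 down in each genotype. That is 22.2%, below the 40.4% of all genes tested in KO and the 34.1% in WT livers. Ugt2b37 was the one that fell. In KO livers Ugt2b37 had 585, 177, 162 and 227 CPM on MCD, against 674, 609, 732 and 2144 CPM on chow. In WT livers Ugt2b37 had 225, 167, 303 and 247 CPM on MCD, against 450.5, 674, 436 and 1251 CPM on chow. The diets were apart for Ugt2b37 in both genotypes, MCD lying below chow throughout. Ugt2b37 had a diet log2 fold of -1.85 ± 0.49 in KO livers (adjusted p = 0.00748) and of -1.58 ± 0.49 in WT livers (adjusted p = 0.0201). Its WT call was lost without WT MCD 2 (-1.44, adjusted p = 0.0632) or WT chow 4 (-1.14, adjusted p = 0.0708), and without KO MCD 1 or KO chow 4 its KO values were -2.46 and -1.22. With the index in the model both calls were lost (-0.50 in KO and -0.17 in WT livers, adjusted p = 0.211 and 0.672). Ugt2b10 was called in WT livers. In KO livers Ugt2b10 had 50.6, 52.1, 36.4 and 57.1 CPM on MCD, against 26.2, 50.3, 39.2 and 25.7 CPM on chow. In WT livers Ugt2b10 had 62.8, 55.0, 49.7 and 40.7 CPM on MCD, against 22.3, 33.5, 8.81 and 37.2 CPM on chow. For Ugt2b10 the diets overlapped in KO livers, while every MCD value lay above every chow value in WT livers. Ugt2b10 had a diet log2 fold of 0.47 ± 0.33 in KO livers (adjusted p = 0.26) and of 1.03 ± 0.33 in WT livers (adjusted p = 0.0255). Without WT MCD 1, WT MCD 2 or WT chow 1 its WT values were 0.92, 1.00 and 0.95 (adjusted p = 0.0643, 0.0564 and 0.0692). Ugt2a1, best known from the olfactory epithelium, was called in KO livers. In KO livers Ugt2a1 had 5.56, 5.90, 3.86 and 6.40 CPM on MCD, against 2.61, 3.28, 2.97 and 3.08 CPM on chow. In WT livers Ugt2a1 had 4.69, 4.76, 4.31 and 4.94 CPM on MCD, against 2.13, 4.93, 2.89 and 7.14 CPM on chow. For Ugt2a1 every MCD value lay above every chow value in KO livers, while the diets overlapped in WT livers. Ugt2a1 had a diet log2 fold of 0.86 ± 0.30 in KO livers (adjusted p = 0.0289) and of 0.12 ± 0.29 in WT livers (adjusted p = 0.769). Without KO MCD 2, KO MCD 4, KO chow 1 or KO chow 3 its KO values were 0.82, 0.78, 0.81 and 0.86 (adjusted p = 0.0672, 0.0781, 0.0686 and 0.0549). The difference between genotypes did not pass the test for Ugt2b10 (-0.55 ± 0.46) or Ugt2a1 (0.74 ± 0.41), each with an adjusted p of 1.00.

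Ugt2b took 1 of 2 levels in each library. It and the next 3 genes are described after their values were seen. In KO livers Ugt2b had 1938, 903, 1549.8 and 1070.3 CPM on MCD, against 12.8, 21.0, 16.9 and 3994 CPM on chow. In WT livers Ugt2b had 1349, 16.9, 1167 and 888 CPM on MCD, against 18.2, 13.2, 11.6 and 3634 CPM on chow. It was at 11.6 to 21.0 CPM in 7 libraries, namely KO chow 1 to 3, WT chow 1 to 3 and WT MCD 2, and at 888 to 3994 CPM in the other 9, a gap of 42.3-fold between the nearest values. Ugt2b had a diet log2 fold of 0.43 ± 1.82 in KO livers (adjusted p = 0.864) and of -0.10 ± 1.82 in WT livers (adjusted p = 0.97). Both chow libraries numbered 4 held the high level; without these a log2 fold of 6.33 (adjusted p = 0.000397) in KO and 5.89 (adjusted p = 0.00051) in WT livers was obtained, and without the 3 libraries 6.12 ± 1.22 (adjusted p = 0.00209) and 5.89 ± 1.19 (adjusted p = 0.00247).

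Ugt2b1 also had its lowest values in chow libraries 1 to 3 of both genotypes, but not 2 levels so far apart. WT MCD 2, at the low level for Ugt2b, had more Ugt2b1 than those chow libraries. Ugt2b1 had 268, 99.0, 112 and 164 CPM in KO MCD livers, against 52.6, 31.8, 46.1 and 495 CPM in KO chow livers. In WT livers Ugt2b1 had 149.5, 88.8, 178 and 118 CPM on MCD, against 41.8, 54.9, 29.2 and 414 CPM on chow. The chow libraries numbered 4 were the 2 highest of all 16. Ugt2b1 had a diet log2 fold of 0.04 ± 0.85 in KO livers (adjusted p = 0.973) and of -0.01 ± 0.85 in WT livers (adjusted p = 0.992). Without the 3 libraries its folds were 1.52 ± 0.30 (adjusted p = 0.000882) in KO and 1.66 ± 0.29 (adjusted p = 0.000389) in WT livers. Ugt2b15 and Ugt2b17, symbols used for androgen-conjugating forms, were not called with all libraries. Their log2 folds were -1.40 ± 0.58 and -1.12 ± 0.51 in KO livers and -0.81 ± 0.57 and -0.95 ± 0.51 in WT livers. Without the 3 libraries Ugt2b17 had -0.89 ± 0.17 (adjusted p = 0.000591) in KO and -0.41 ± 0.16 (adjusted p = 0.0433) in WT livers, and Ugt2b15 had -0.83 ± 0.20 (adjusted p = 0.00282) in KO and -0.28 ± 0.18 (adjusted p = 0.215) in WT livers. Ugt2b7, near the count limit, was not called in either fit; its KO log2 fold was -0.12 ± 1.24 with all libraries and 4.94 ± 2.01 without the 3. In KO chow 4 the levels of 20 of 51 members were at least 2 times the mean of the other 3 libraries of their group, beside 14.0% of all genes tested; in KO MCD 1 it was 10 of 51, beside 6.70%, and in WT chow 4 17 of 51, beside 8.65%.

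**Figure D3:**
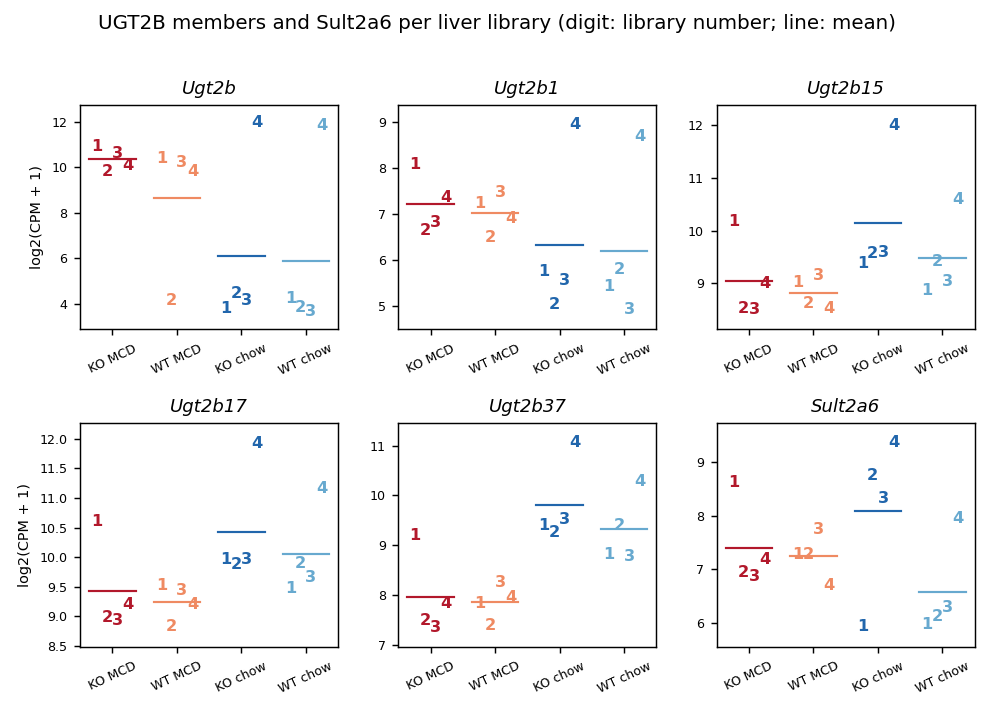
Level of 5 UGT2B genes and Sult2a6 in every library, as log2(CPM + 1) on the y axis, by group from KO MCD at the left to WT chow at the right; digits are library numbers and lines group means. Chow libraries numbered 4 lie above the other chow libraries of their group in every panel, and Ugt2b is at 11.6 to 21.0 CPM in 7 libraries and at 888 CPM or more in 9.

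The alpha class GST genes, which reduce lipid hydroperoxides and conjugate the aldehydes that lipid peroxidation forms, fell together. On MCD 4 of 5 were lower in each genotype, which is 80%. Over all genes tested 18.5% fell in KO and 15.9% in WT livers. Gsta4 prefers 4-hydroxynonenal, an end product of lipid peroxidation. In KO livers Gsta4 had 40.5, 37.6, 49.9 and 46.4 CPM on MCD, against 83.4, 83.3, 77.7 and 89.4 CPM on chow. In WT livers Gsta4 had 49.0, 41.3, 47.1 and 44.3 CPM on MCD, against 75.5, 83.2, 84.4 and 85.4 CPM on chow. For Gsta4 the lowest and highest libraries of the diets did not cross in either genotype, and MCD lay below chow. Gsta4 had a diet log2 fold of -0.94 ± 0.13 in KO livers (adjusted p = 5.89e-05) and of -0.85 ± 0.13 in WT livers (adjusted p = 0.00014). Without scaling Gsta4 was called in neither genotype (-0.20 in KO and -0.32 in WT livers, adjusted p = 0.27 and 0.0967). In KO livers Gsta5 had 546, 219, 298 and 318 CPM on MCD, against 1619.7, 1063, 1185 and 2376 CPM on chow. In WT livers Gsta5 had 302, 337, 447 and 266 CPM on MCD, against 1102, 1137, 1593 and 1082 CPM on chow. Every MCD value of Gsta5 lay below every chow value in both genotypes. Gsta5 had a diet log2 fold of -2.18 ± 0.31 in KO livers (adjusted p = 8.06e-05) and of -1.86 ± 0.30 in WT livers (adjusted p = 0.000319). In KO livers Gsta2 had 291, 125, 197 and 209 CPM on MCD, against 759.6, 591, 607 and 1317 CPM on chow. In WT livers Gsta2 had 182, 215, 318 and 181 CPM on MCD, against 453, 516, 459 and 675 CPM on chow. In both genotypes the MCD libraries all lay below the chow libraries for Gsta2. Gsta2 had a diet log2 fold of -1.99 ± 0.30 in KO livers (adjusted p = 0.000154) and of -1.23 ± 0.30 in WT livers (adjusted p = 0.00513). Gsta1, described after its values were seen, also fell. Gsta1 had a diet log2 fold of -2.69 ± 0.53 in KO livers (adjusted p = 0.00116) and of -2.23 ± 0.52 in WT livers (adjusted p = 0.00437). Without the 3 libraries Gsta1 had -2.20 ± 0.16 in KO and -1.77 ± 0.14 in WT livers (adjusted p = 3.68e-07 and 5.71e-07). With the index in the model the WT calls of Gsta1 (-0.70, adjusted p = 0.119) and Gsta2 (-0.51, adjusted p = 0.119) were lost. Gsta3, the fifth gene, had 0.66 ± 0.61 in KO and 1.23 ± 0.62 in WT livers and was not called; without the 3 libraries its KO value was 1.67 ± 0.57 (adjusted p = 0.0302). Summed, the alpha class had 1112 ± 472 CPM in KO MCD and 968 ± 159 CPM in WT MCD livers, against 5582 ± 3911 CPM in KO chow and 3429.8 ± 921 CPM in WT chow livers (SD, n = 4 each). KO chow 4 alone had 11408 CPM, beside 3310 to 4289 CPM in the other KO chow libraries.

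In the mu class 2 of 7 genes fell and 1 rose in each genotype. That is 42.9% called, beside 40.4% of all genes tested in KO and 34.1% in WT livers. In KO livers the count was thus near the share of all genes. In KO livers Gstm7 had 7.86, 9.39, 17.5 and 10.5 CPM on MCD, against 50.8, 39.4, 38.6 and 62.0 CPM on chow. In WT livers Gstm7 had 12.2, 6.07, 8.92 and 9.37 CPM on MCD, against 63.4, 65.8, 58.8 and 77.0 CPM on chow. Gstm7 showed no overlap of the diets, with MCD below chow in KO and WT livers alike. Gstm7 had a diet log2 fold of -2.08 ± 0.26 in KO livers (adjusted p = 2.57e-05) and of -2.86 ± 0.26 in WT livers (adjusted p = 2.53e-06). The fall of Gstm7 was called in all 27 alternative settings in both genotypes. In KO livers Gstm6 had 1.25, 0.572, 0.728 and 0.497 CPM on MCD, against 3.07, 2.41, 1.19 and 9.77 CPM on chow. In WT livers Gstm6 had 0.984, 0.849, 0.546 and 0.612 CPM on MCD, against 2.87, 3.16, 2.02 and 3.62 CPM on chow. For Gstm6 the diets overlapped in KO livers, while every MCD value lay below every chow value in WT livers. Gstm6 had a diet log2 fold of -2.41 ± 0.52 in KO livers (adjusted p = 0.0021) and of -1.98 ± 0.52 in WT livers (adjusted p = 0.00885). Without KO chow 4, the highest, its KO value was -1.54, and with the index in the model Gstm6 was called in neither genotype. In KO livers Gstm3 had 21.3, 23.7, 21.0 and 9.05 CPM on MCD, against 3.18, 2.73, 1.78 and 2.81 CPM on chow. In WT livers Gstm3 had 13.0, 19.1, 3.88 and 15.5 CPM on MCD, against 5.10, 2.88, 2.02 and 3.14 CPM on chow. For Gstm3 every MCD value lay above every chow value in KO livers, while the diets overlapped in WT livers. Gstm3 had a diet log2 fold of 2.84 ± 0.44 in KO livers (adjusted p = 0.00018) and of 1.95 ± 0.42 in WT livers (adjusted p = 0.0025). Library WT MCD 3, at 3.88 CPM, was the one that reached into the chow range. Gstm1 and Gstm2 were not called; Gstm1 had 0.08 ± 0.22 in KO and -0.56 ± 0.22 in WT livers, and without the 3 libraries -0.75 ± 0.14 in WT livers (adjusted p = 0.000371). The class as a whole summed to 1421 ± 57.2 CPM in KO MCD and 1291 ± 166 CPM in WT MCD livers, against 1429 ± 143 CPM in KO chow and 1910.0 ± 352 CPM in WT chow livers (SD, n = 4 each).

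Of the theta, zeta, kappa, omega and pi genes 4 of 8 fell in each genotype: Gstt1, Gstt2, Gstz1 and Gstk1. Over all genes tested 18.5% fell in KO and 15.9% in WT livers. In KO livers Gstt1 had 18.8, 13.3, 14.0 and 16.7 CPM on MCD, against 53.8, 41.1, 48.3 and 63.7 CPM on chow. In WT livers Gstt1 had 17.3, 14.6, 21.2 and 15.7 CPM on MCD, against 52.0, 48.3, 49.3 and 59.0 CPM on chow. The diets were apart for Gstt1 in both genotypes, MCD lying below chow throughout. Gstt1 had a diet log2 fold of -1.72 ± 0.17 in KO livers (adjusted p = 6.04e-06) and of -1.60 ± 0.17 in WT livers (adjusted p = 1.1e-05). In KO livers Gstz1 had 235, 208, 208 and 178 CPM on MCD, against 528, 452, 466 and 704 CPM on chow. In WT livers Gstz1 had 207, 157, 243 and 152 CPM on MCD, against 428, 426, 520.2 and 593 CPM on chow. For Gstz1 the lowest and highest libraries of the diets did not cross in either genotype, and MCD lay below chow. Gstz1 had a diet log2 fold of -1.37 ± 0.20 in KO livers (adjusted p = 0.000109) and of -1.37 ± 0.20 in WT livers (adjusted p = 0.000127). Gstz1 encodes maleylacetoacetate isomerase, an enzyme of tyrosine breakdown. In KO livers Gstt2 had 53.1, 39.1, 50.2 and 50.6 CPM on MCD, against 129, 124, 111 and 260.4 CPM on chow. In WT livers Gstt2 had 55.0, 39.4, 64.2 and 35.4 CPM on MCD, against 96.9, 119.6, 142 and 127 CPM on chow. Every MCD value of Gstt2 lay below every chow value in both genotypes. Gstt2 had a diet log2 fold of -1.69 ± 0.26 in KO livers (adjusted p = 0.00018) and of -1.33 ± 0.26 in WT livers (adjusted p = 0.00131). Gstk1 had a diet log2 fold of -1.15 ± 0.25 in KO livers (adjusted p = 0.00193) and of -0.97 ± 0.25 in WT livers (adjusted p = 0.00697). Gstk1, the kappa form of mitochondria and peroxisomes, was not called in either genotype without scaling. Gstp1, the pi form known in rat liver as a marker of preneoplastic foci, was called up in KO livers, near the threshold. Gstp1 had 15.5, 14.2, 12.7 and 21.1 CPM in KO MCD livers, against 12.8, 10.4, 11.2 and 10.6 CPM in KO chow livers. In WT livers Gstp1 had 18.5, 13.3, 16.9 and 18.04 CPM on MCD, against 11.4, 13.5, 19.4 and 13.8 CPM on chow. The MCD and chow values of Gstp1 overlapped in both genotypes. Gstp1 had a diet log2 fold of 0.50 ± 0.19 in KO livers (adjusted p = 0.0474) and of 0.21 ± 0.19 in WT livers (adjusted p = 0.409). That call held in 7 of the 27 alternative settings. Gsto1, Gsto2 and Gstt3 were not called with all libraries; without the 3 libraries Gsto1 fell by 0.67 in KO livers (adjusted p = 0.000995) and by 0.32 in WT livers (adjusted p = 0.0466) on the log2 scale.

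All 3 membrane-bound MGST genes fell in both genotypes with TMM scaling, beside 18.5% of all genes tested in KO and 15.9% in WT livers. Mgst1, an abundant protein of the endoplasmic reticulum and outer mitochondrial membrane, moved most. In KO livers Mgst1 had 1518, 1001, 1031 and 1018 CPM on MCD, against 3868, 3393, 3609.6 and 3192 CPM on chow. In WT livers Mgst1 had 1092, 844, 1332 and 1034 CPM on MCD, against 2723, 2939, 3743 and 3602 CPM on chow. In both genotypes the MCD libraries all lay below the chow libraries for Mgst1. Mgst1 had a diet log2 fold of -1.62 ± 0.20 in KO livers (adjusted p = 2.45e-05) and of -1.60 ± 0.20 in WT livers (adjusted p = 3.47e-05). In KO livers Mgst3 had 80.7, 49.3, 56.1 and 49.6 CPM on MCD, against 128, 97.9, 94.3 and 156 CPM on chow. In WT livers Mgst3 had 66.1, 46.2, 55.4 and 49.3 CPM on MCD, against 97.0, 85.7, 132 and 150.1 CPM on chow. Mgst3 showed no overlap of the diets, with MCD below chow in KO and WT livers alike. Mgst3 had a diet log2 fold of -1.01 ± 0.23 in KO livers (adjusted p = 0.00251) and of -1.10 ± 0.23 in WT livers (adjusted p = 0.0018). In KO livers Mgst3 was not called without scaling (-0.27, adjusted p = 0.211) or with that index as a term (-0.51, adjusted p = 0.0684). Mgst2, which can also form leukotriene C4, fell least. In KO livers Mgst2 had 62.2, 40.5, 54.1 and 49.5 CPM on MCD, against 92.2, 98.2, 83.8 and 47.8 CPM on chow. In WT livers Mgst2 had 68.9, 44.4, 54.5 and 49.9 CPM on MCD, against 92.3, 70.0, 108 and 79.3 CPM on chow. For Mgst2 the diets overlapped in KO livers, while every MCD value lay below every chow value in WT livers. Mgst2 had a diet log2 fold of -0.64 ± 0.22 in KO livers (adjusted p = 0.0294) and of -0.68 ± 0.22 in WT livers (adjusted p = 0.025). Its calls were lost in 9 of the 27 alternative settings in KO and 7 in WT livers, and without scaling its KO value was 0.0547 (adjusted p = 0.857). The MGST sum was 1252 ± 273 CPM in KO MCD and 1184 ± 211 CPM in WT MCD livers, against 3715 ± 296 CPM in KO chow and 3455 ± 531 CPM in WT chow livers (SD, n = 4 each).

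Comparisons of KO with WT livers asked whether loss of Tspo alters the same genes. On chow 0 of 51 members were called by edgeR, beside 0.00896% of all genes tested, and 5 had an unadjusted p under 0.05: Sult4a1 (3.60 ± 0.82), Sult2a6 (1.69 ± 0.60), Gstm1 (-0.57 ± 0.22), Sult2a2 (1.10 ± 0.48) and Gsta2 (0.64 ± 0.29), as log2 folds of KO over WT. On MCD 0 of 51 were called, beside 0% of all genes, and 1, Sult1e1, had an unadjusted p under 0.05. For the difference of the diet effects 0 were called, beside 0%, and 3 had an unadjusted p under 0.05, Sult1e1, Sult4a1 and Gstm7. DESeq2 also called 0 members in each of the 3. The doubt over Tspo in the libraries labelled KO chow 4 and KO MCD 1 touches all of these. Without those libraries 0 members were called on chow, beside 0.0355% of all genes, and 5 had an unadjusted p under 0.05. Without them and WT chow 4, 3 of 51 members were called on chow, beside 4.60% of all genes, a count near that share. They were Sult4a1 at 3.88 ± 0.74 (adjusted p = 0.0213), Sult2a2 at 1.74 ± 0.38 (adjusted p = 0.0305) and Gstm1 at -0.65 ± 0.15 (adjusted p = 0.028). Sult4a1 is a member only through the KO chow libraries where it is high, so its values here add no support. Sult2a2 then had 20.0, 69.9 and 36.1 CPM in KO chow livers, against 15.6, 13.0 and 8.67 CPM in WT chow livers. Gstm1 had 1247, 1137 and 980.2 CPM in KO chow livers, against 1791, 1836 and 1662 CPM in WT chow livers. Both genes were picked from this fit, so their lack of overlap between genotypes among these libraries adds no support. WT chow 4, left out here, had 54.8 CPM of Sult2a2 and 872 CPM of Gstm1. With KO chow 4 included, KO chow livers spanned 20.0 to 72.3 CPM and 786 to 1247 CPM, so WT chow 4 lay within. A p that misses the threshold does not show that the genotypes are alike.

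The diet comparison without the 3 libraries called more members. In KO livers 35 were called (11 up, 24 down), beside 51.6% of all genes tested, and in WT livers 34 (10 up, 24 down), beside 50.5%. Of the calls with all 16 libraries, 26 in each genotype remained. Ugt1a3 and Gstp1 were lost in KO and Ugt1a2 in WT livers. The calls gained in both genotypes were Ugt2b, Ugt2b1, Ugt2a3, Sult1c2a, Gsto1 and Ugt2b17; those gained in KO livers alone were Gsta3, Gstm4 and Ugt2b15, and in WT livers alone Gstm1 and Sult1b1.

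**Figure D4:**
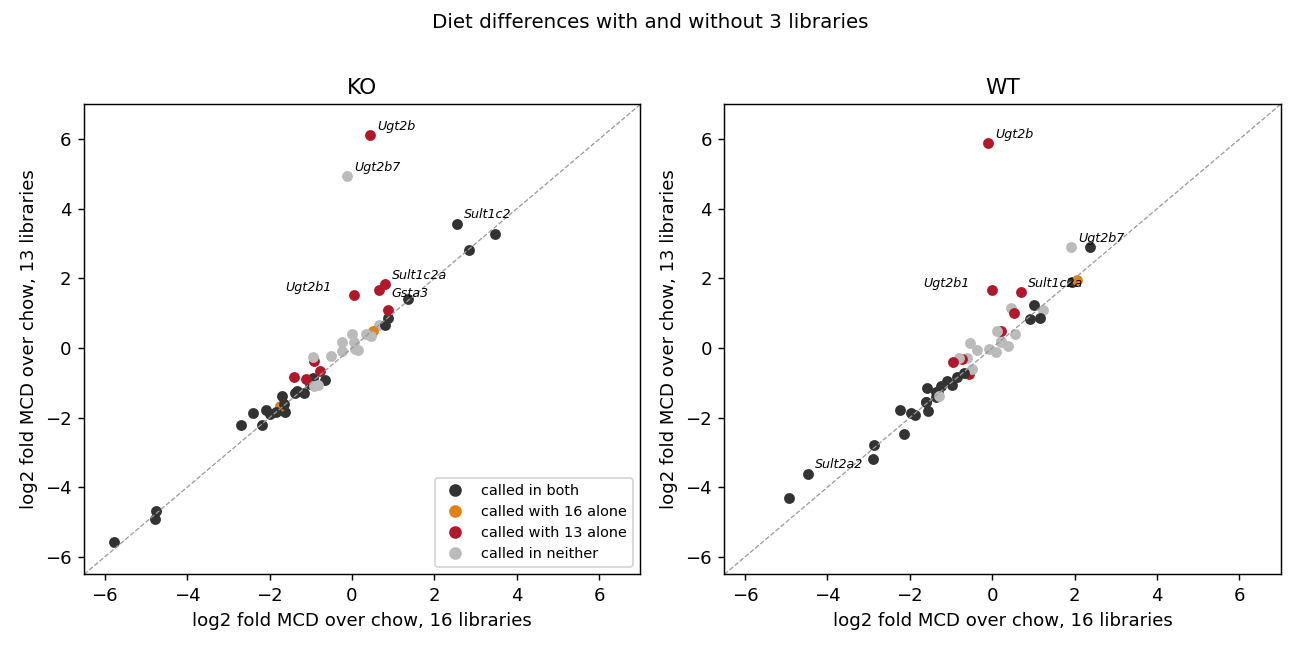
Diet log2 fold of each member, MCD over chow, with all 16 libraries (x axis) and with 13 (y axis), in KO (left) and WT (right) livers; Sult1e1 is left out and the dashed line marks equal values. Colours show with how many libraries a member was called, and names mark the members that moved most. Most points lie near the line, while Ugt2b sits at 0.43 and 6.12 in KO and at -0.10 and 5.89 in WT livers.

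The genes that feed, regulate and follow the conjugation enzymes were read from lists chosen by function. Their counts stand beside 21.9% of all genes tested that rose and 18.5% that fell in KO livers, and 18.2% that rose and 15.9% that fell in WT livers; in the short lists a count near these shares says nothing particular of the list. Of 9 genes for the sulfate and glucuronate donors 1 rose and 3 fell in KO livers and 2 rose and 2 fell in WT livers, which is 4 of 9 called in each, beside 40.4% of all genes in KO and 34.1% in WT livers. Papss2, the liver enzyme that makes PAPS, was lower. Papss2 averaged 89.9 ± 25.5 CPM in KO MCD and 92.7 ± 15.2 CPM in WT MCD livers, against 154 ± 30.4 CPM in KO chow and 181 ± 34.4 CPM in WT chow livers (SD, n = 4 each). Papss2 had a diet log2 fold of -0.78 ± 0.23 in KO livers (adjusted p = 0.0124) and of -0.96 ± 0.23 in WT livers (adjusted p = 0.00425). Ugp2, which makes UDP-glucose, was called lower in KO livers. Ugp2 had a diet log2 fold of -1.14 ± 0.22 in KO livers (adjusted p = 0.0011) and of -0.58 ± 0.22 in WT livers (adjusted p = 0.0522). Slc35d1, a carrier of UDP-glucuronate into the endoplasmic reticulum, rose in both. Slc35d1 had a diet log2 fold of 0.75 ± 0.21 in KO livers (adjusted p = 0.0101) and of 0.76 ± 0.21 in WT livers (adjusted p = 0.0109). Ugdh, which makes UDP-glucuronate, was called higher in WT livers. Ugdh had a diet log2 fold of 0.26 ± 0.18 in KO livers (adjusted p = 0.263) and of 0.81 ± 0.18 in WT livers (adjusted p = 0.00361).

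Of 10 genes for glutathione supply and the mercapturate steps 2 rose in KO and 4 in WT livers, and 0 fell, so that the rises in KO livers were near the share over all genes. Ggt1 and Anpep, ectoenzymes that trim glutathione and its conjugates, rose in both. Ggt1 had a diet log2 fold of 2.12 ± 0.51 in KO livers (adjusted p = 0.00402) and of 2.34 ± 0.50 in WT livers (adjusted p = 0.00231). Anpep had a diet log2 fold of 1.25 ± 0.22 in KO livers (adjusted p = 0.000494) and of 0.83 ± 0.22 in WT livers (adjusted p = 0.00916). Gclm and Gss, of glutathione synthesis, were called in WT livers alone, at 0.78 ± 0.20 and 0.47 ± 0.12 (adjusted p = 0.00756 and 0.00698), beside 0.19 ± 0.20 and -0.05 ± 0.12 in KO livers. The difference between genotypes did not pass the test in any list. Among 10 NRF2 targets outside the families 4 rose and 1 fell in KO livers, and 4 rose and 0 fell in WT livers. Akr7a3 had a diet log2 fold of 1.37 ± 0.29 in KO livers (adjusted p = 0.00194) and of 1.30 ± 0.29 in WT livers (adjusted p = 0.00323). Srxn1 had a diet log2 fold of 0.75 ± 0.27 in KO livers (adjusted p = 0.0364) and of 1.10 ± 0.27 in WT livers (adjusted p = 0.00565). Srxn1 restores oxidised peroxiredoxins, and Akr7a3 and Akr1b8 are reductases of aldehydes. Akr1b8 had a diet log2 fold of 3.19 ± 0.70 in KO livers (adjusted p = 0.00222) and of 3.21 ± 0.68 in WT livers (adjusted p = 0.00213).

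Of 14 regulators 4 rose and 5 fell in each genotype. Ppara, the fatty acid receptor, rose with Ahr. Ppara had a diet log2 fold of 2.49 ± 0.27 in KO livers (adjusted p = 1.02e-05) and of 2.08 ± 0.26 in WT livers (adjusted p = 4.47e-05). Nfe2l2, which encodes NRF2, and its inhibitor Keap1 fell. Nfe2l2 had a diet log2 fold of -1.10 ± 0.21 in KO livers (adjusted p = 0.00105) and of -0.77 ± 0.21 in WT livers (adjusted p = 0.0119). Keap1 had a diet log2 fold of -0.78 ± 0.11 in KO livers (adjusted p = 0.000103) and of -0.50 ± 0.11 in WT livers (adjusted p = 0.00351). Of 8 tested AHR, CAR and PXR targets 2 rose and 1 fell in KO livers, and 2 rose and 2 fell in WT livers. Cyp2b1, a classic CAR target, and Cyp1a1, a classic AHR target, rose, while Cyp3a23/3a1, a PXR target, fell. Cyp2b1 had a diet log2 fold of 4.19 ± 0.66 in KO livers (adjusted p = 0.000195) and of 2.80 ± 0.59 in WT livers (adjusted p = 0.00214). Cyp1a1 had a diet log2 fold of 1.93 ± 0.67 in KO livers (adjusted p = 0.0301) and of 2.53 ± 0.71 in WT livers (adjusted p = 0.0126). Cyp3a23/3a1 had a diet log2 fold of -2.27 ± 0.59 in KO livers (adjusted p = 0.00689) and of -3.61 ± 0.62 in WT livers (adjusted p = 0.000513). Cyp1a2, another AHR target, was called lower in WT livers alone. Cyp1a2 had a diet log2 fold of -0.64 ± 0.29 in KO livers (adjusted p = 0.0937) and of -1.18 ± 0.30 in WT livers (adjusted p = 0.00677).

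Of 4 exporters of conjugates 2 rose in each genotype, Abcc3 and Abcc4, which carry conjugates from hepatocytes towards blood. Abcc3 averaged 33.4 ± 12.1 CPM in KO MCD and 30.2 ± 12.7 CPM in WT MCD livers, against 3.17 ± 0.373 CPM in KO chow and 4.17 ± 1.35 CPM in WT chow livers (SD, n = 4 each). Abcc3 had a diet log2 fold of 3.40 ± 0.34 in KO livers (adjusted p = 6.04e-06) and of 2.86 ± 0.33 in WT livers (adjusted p = 1.8e-05). Abcc4 had a diet log2 fold of 2.45 ± 0.38 in KO livers (adjusted p = 0.00018) and of 2.17 ± 0.36 in WT livers (adjusted p = 0.0004). Of 3 hydrolases 1, the steroid sulfatase Sts, fell in each. Sts had a diet log2 fold of -0.96 ± 0.20 in KO livers (adjusted p = 0.00168) and of -0.99 ± 0.20 in WT livers (adjusted p = 0.00163). Other phase II enzymes fell: 5 of 7 in each genotype, among them Nnmt, Baat and Nat1, which transfer methyl groups to nicotinamide, bile acids to amino acids and acetyl groups to amines. Nnmt averaged 24.2 ± 13.1 CPM in KO MCD and 19.4 ± 5.02 CPM in WT MCD livers, against 146 ± 95.7 CPM in KO chow and 85.6 ± 49.5 CPM in WT chow livers (SD, n = 4 each). Nnmt had a diet log2 fold of -2.60 ± 0.47 in KO livers (adjusted p = 0.000574) and of -2.14 ± 0.46 in WT livers (adjusted p = 0.00241). Baat and Nat1 were lower as well. Baat had a diet log2 fold of -1.83 ± 0.44 in KO livers (adjusted p = 0.00402) and of -1.47 ± 0.43 in WT livers (adjusted p = 0.0163). Nat1 had a diet log2 fold of -1.60 ± 0.33 in KO livers (adjusted p = 0.00163) and of -1.15 ± 0.33 in WT livers (adjusted p = 0.0138). None of the genes of the 8 lists was called between genotypes or for the difference of the diet effects.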

How the data were processed

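Total RNA of rat livers was made into libraries with a kit for stranded mRNA, as the labels' protocols state. The authors deposited an expected count per gene, made per the submitters' processing notes with RSEM 1.2.15, Bowtie2 2.1.0 and rn6, whose roles are not stated. The strand setting and annotation were not stated either. Of the deposited values 88.9% were whole; all were rounded. A second deposited table, of normalised values, was not used. The rounded counts went into edgeR 4.0.16 under R 4.3.3 (filterByExpr, TMM, 1 term per group, robust quasi-likelihood test, 12 residual degrees of freedom, biological coefficient of variation 28%, Benjamini-Hochberg adjustment over 11162 genes), with DESeq2 1.42.0 as an alternative. CPM levels use TMM-scaled totals, not gene length, so levels are not compared between genes. Standard errors were taken from each log2 fold and its F statistic.

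Named by rule were, per subfamily, up to 3 members called for the diet with the smallest p, members called in a knockout contrast or the interaction, plus at most 4 called genes of each list; other names were chosen after their values were seen. Some genes of the lists are not reported here. The members, lists and several alternatives were chosen with earlier results of these data known. Of 52 member symbols 51 match RefSeq symbols (GRCr8), and 10 of these are also older names of another gene (Gsta1, Gsta2, Gsta3, Gsta5, Gstm3, Gstm4, Ugt1a6, Ugt1a8, Ugt1a9 and Ugt2b15). The symbol without a match, Ugt2b17, is an older name of both Ugt2b1 and Ugt2b15, so which gene its row holds is uncertain. Of the 52, 43 have a promoter in the table used. Library pairs within groups differed well beyond counting noise, with chi-square values per gene between 15.3 and 383.9. On simulated data for the KO diet contrast, over 10950 genes, 48 of 100 genes changed 2-fold and 93 of 100 changed 4-fold were recovered, with 7 false calls. Only those genes were changed there and no library was set apart, while 40.4% of all genes were called in the real contrast. The simulated figures therefore do not give the recovery or the false calls in the real data.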

Additional observations from a re-analysis of the deposited data

Results flagged for a closer look

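A library's level was examined for standing apart from the other 3 of its group, by Dixon's 95% critical value for the gap to the nearest library over the range of the group. Of 96 groups of the 24 members named by rule 15 passed it. Among these 15, 2 are Sult1e1 groups whose other 3 libraries are all at 0, which fixes the ratio. The nominal rate of 1 in 20 does not hold here. These members were named by their p in the same data, CPM was not put on a log scale, and the genes share libraries. Of 40 groups of the 10 members described after their values were seen 18 passed it, and no chance rate applies to these either. Only values that passed are listed below, and a library can be the highest of its group for further members. Of 51 members, KO MCD 1 lay above the other 3 libraries of its group for 24, KO chow 4 for 32 and WT chow 4 for 27. In library KO MCD 1 the highest values of the group were those of Ugt2b37 (585 CPM), Mgst1 (1520 CPM), Ugt2b17 (1560 CPM), Sult2a6 (389 CPM), Sult1a1 (729 CPM), Gsta1 (871 CPM) and Gsto1 (206 CPM). In library KO chow 4 the highest values of the group were those of Sult1c2 (61.3 CPM), Sult2a1 (3910 CPM), Ugt2b37 (2140 CPM), Gstt2 (260 CPM), Ugt2b (3990 CPM), Ugt2b1 (495 CPM), Ugt2b15 (4110 CPM), Ugt2b17 (3890 CPM), Sult1a1 (2150 CPM), Gsta1 (7560 CPM) and Gsto1 (382 CPM). In library WT chow 4 the highest values of the group were those of Sult2a2 (54.8 CPM), Sult2a1 (2960 CPM), Ugt2b (3630 CPM), Ugt2b1 (414 CPM), Ugt2b17 (2300 CPM), Sult2a6 (245 CPM), Sult1a1 (1170 CPM) and Gsta1 (2880 CPM). KO MCD 4 was the highest of its group for Sult1e1 (0.0552 CPM). WT MCD 1 was the highest of its group for Sult1e1 (19.4 CPM). WT MCD 4 was the highest of its group for Sult1c2 (396 CPM). WT chow 2 was the highest of its group for Ugt1a7c (18 CPM). WT chow 3 was the highest of its group for Ugt1a2 (8.38 CPM) and Gsta5 (1590 CPM). WT chow 4 was the lowest of its group for Ugt1a6 (16.1 CPM). The first 3 of these libraries are those with the low length index, -0.77, -1.71 and -0.77, and the part of that index in these levels was not tested.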

How the results depend on the processing

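The counts of members called for the diet kept within 1.5 times under all 27 alternatives. Leaving out each of the 16 libraries in turn gave 24 to 32 calls in KO and 23 to 29 in WT livers, and 0 calls between genotypes and for the difference of the diet effects. Of the 28 KO calls 15, and of the 27 WT calls 12, held in every alternative. The fit without KO chow 4 and KO MCD 1, both with doubtful Tspo, gave 31 calls in KO and 33 in WT livers (43.4 and 45.9% of all genes). Other scalings (DESeq2 size factors, upper quartile), no filter on low counts and DESeq2 gave 27, 27, 28 and 27 calls in KO (40.7, 40.5, 30.6 and 37.8% of all genes) and 27, 27, 26 and 26 in WT livers (33.9, 34.2, 25.2 and 33.7%). Without scaling it was 31 in KO and 29 in WT livers (61.4 and 47.6% of all genes, so the KO members' 60.8% was near the background), and Mgst2 in KO livers turned to 0.0547 (adjusted p = 0.857). With the length index as a covariate 23 were called in KO and 24 in WT livers (24.8 and 28.7% of all genes), and 15 of 45 named diet results were lost; the cause was not tested. Between genotypes on chow 3 of 51 members were called without the 3 libraries that stood apart, beside 4.60% of all genes, a count near that share. Without every library numbered 4, and without the chow libraries numbered 4, both chosen after the data were seen, 28 and 32 were called in KO (32.6 and 39.6% of all genes) and 33 and 31 in WT livers (36.2 and 42.1%). Whether replicate numbers pair libraries was not settled: of 24 same-number pairs 8 correlated above 0.1 (range -0.44 to 0.57). KO and WT chow libraries of the same number correlated at 0.30, 0.25, -0.06 and 0.57 for numbers 1, 2, 3 and 4. Pairs of different numbers were not computed for comparison. With the number as a block the pairing fit gave 30 calls in KO, 26 in WT livers (38.0 and 32.7% of all genes) and 0 in the other contrasts. Depth limits the members near the minimum of 10 counts.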
